A study of Mus musculus with 6 samples.

Results

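The keratin genes on the array were described in mouse embryonic stem cell derivatives treated with a deacetylase inhibitor. Members were all non-control probes whose RefSeq identifier maps to a symbol made of Krt and a number, with an optional letter, so the keratin-associated proteins (Krtap) were left out. This gave 48 probes for 42 genes, of 18749 genes named on the array: 22 type I keratins, 19 type II keratins and the keratin-like gene Krt222. The reference table lists 54 such symbols, and 12 of them had no probe named in this way and were not analysed here. Embryonic stem cells of the 129/Ola strain were differentiated on gelatin in N2B27, a serum-free medium that favours neural fates, and the samples are labelled as day 3 cells. The DMSO group, 3 samples, received the solvent for 24 h, and the TSA group, 3 samples, received trichostatin A, an inhibitor of histone deacetylases, for 24 h; the dose of TSA is not stated in the labels. Each group comprised 3 experiments that the submitters describe as independent, numbered 1, 2 and 3, and both groups share the line and the medium. All were cell cultures, and total RNA of each sample was hybridised to its own single-colour Agilent array.

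Keratins are the intermediate filament proteins of epithelial cells. A filament is built from heterodimers of an acidic type I and a basic type II keratin, so a cell that makes a stable keratin network expresses members of both types. In the mouse the genes lie in a type I cluster and a type II cluster, with Krt18, a type I gene, at the end of the type II cluster. Krt8 and Krt18 are the first keratins of the embryo and mark simple epithelia such as trophectoderm. Krt5 and Krt14 mark the basal layer of stratified epithelia, Krt1 and Krt10 the layers above it, and further members are specific to the inner root sheath and the shaft of the hair follicle.

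Levels are log2 of the processed signal minus the 75th percentile of the same array, so a level of 0 equals that percentile, and levels of different probes are not compared with each other. Between 61.1% and 72.3% of the 43379 spots of an array were well above background, the scanner software's own call of detection. TSA replicate 2 was the dimmest array, with a 75th percentile of 311 intensity units against 632 to 926 on the others. Its correlation with the remaining TSA arrays was 0.931 and 0.939, while all further within-group pairs reached 0.984 to 0.990. A slide carried 1 experiment, with DMSO always in position 3 and TSA always in position 4, and the effect of position cannot be told apart from that of TSA. To check the labelled cell type, all 6 neural progenitor markers and all 5 pluripotency markers passed the detection filter. Passing shows detection and not the share of cells of either kind. In either list 0 members rose or fell, against 1.36% and 0.0551% of all tested genes. The neural markers, taken as the sum of their linear signals in units of the array's 75th percentile, read 10.1 to 11.7 in DMSO and 8.19 to 9.0 in TSA, without overlap. The pluripotency markers summed to 37.5, 47.8 and 23.0 on the DMSO arrays and 35.2, 30.7 and 22.0 on the TSA arrays, with overlap. Of the 5, 3 had a higher mean in TSA. Among the neural markers Sox1 was dim, with a mean DMSO level of -4.66. The neural sum is mostly the signal of Nes and Sox2, with mean DMSO levels of 2.92 and 1.37. They differed by -0.38 ± 0.20 and -0.43 ± 0.27 (limma adjusted p = 0.535 and 0.605). The median difference of the 6 neural markers was -0.40 on the log2 scale. Of the 6, 3 had every TSA array below every DMSO array, against 8.29% of all tested genes. In the other direction, 1 of the 6 had every TSA array above, against 16.4%. A higher mean in TSA was seen in 2 of the 6, against 58.1% of all tested genes. Pax6, a neural transcription factor, differed by -1.21 ± 0.24 (limma adjusted p = 0.0814, and 0.0572 with the experiment as a block), while Lhx5, another, differed by 1.49 ± 0.52 and passed only with the block (adjusted p = 0.0425). The part of this shift in the keratin values was not tested. With only 6 arrays the precision of each value is limited.

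Of the type II keratins 3 rose in TSA, and no keratin of either type fell. The risen genes were Krt79, a keratin of the hair canal and sebaceous duct, Krt71, a keratin of the inner root sheath, and Krt75, a keratin of the companion layer of the hair follicle. Of the 42 keratins, 24 passed the filter of detection on at least 3 of the 6 arrays and entered a limma test over 28166 probes with Benjamini-Hochberg adjustment. Of these 24, 3 rose, against 1.36% of the 14530 genes tested. None of the 24 fell, against 0.0551% of all tested genes. At an unadjusted limma p under 0.05, 5 of the 24 were higher and 0 lower, against 12.1% and 2.78% of all tested genes. The 3 genes lie in the type II cluster, where 9 type II genes were tested, and 0 of the 14 type I genes tested rose (2 were higher at an unadjusted p under 0.05, near the 12.1% of all tested genes).

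To show the sequence upstream of the 3 genes that rose together, the 250 bases before each start site are given, from RefSeq in the build GRCm38.p6, 5′ to 3′ on the gene's strand, with CpG dinucleotides in capitals. The arrays were annotated on an older build (mm9), and no array position was used. The windows are chr15:101940325-101940574 for Krt79, chr15:101743098-101743347 for Krt71 and chr15:101573905-101574154 for Krt75, all on the minus strand.
Krt79: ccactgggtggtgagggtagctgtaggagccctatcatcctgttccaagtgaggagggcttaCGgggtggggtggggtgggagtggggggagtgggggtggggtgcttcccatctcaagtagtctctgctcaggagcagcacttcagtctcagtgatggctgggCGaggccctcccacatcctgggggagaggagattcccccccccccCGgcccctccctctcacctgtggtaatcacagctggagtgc
Krt71: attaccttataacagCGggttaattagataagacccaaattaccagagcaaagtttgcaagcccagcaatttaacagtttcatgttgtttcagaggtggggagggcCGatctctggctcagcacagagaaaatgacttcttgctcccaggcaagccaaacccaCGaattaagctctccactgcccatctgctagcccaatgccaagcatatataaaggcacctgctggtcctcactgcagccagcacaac
Krt75: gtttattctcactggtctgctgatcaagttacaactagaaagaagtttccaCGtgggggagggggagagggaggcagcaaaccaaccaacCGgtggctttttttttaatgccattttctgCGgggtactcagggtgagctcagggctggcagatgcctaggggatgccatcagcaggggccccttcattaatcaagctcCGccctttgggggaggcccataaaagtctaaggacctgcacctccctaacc

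The windows of Krt79, Krt71 and Krt75 hold 3, 3 and 4 CpG dinucleotides, against a median of 6 and quartiles of 2 and 16 over 32851 windows of all genes. The range over the 29 windows of the 28 keratins with an entry was 1 to 16, with a median of 4. The windows of Krt18 and Krt7, which are detected in these cells, hold 12 and 16, and that of Krt8, detected as well, holds 3. The TATA box letters TATAAA, searched on both strands, occur 40 bases before the start in Krt71 and not in the windows of Krt79 and Krt75; 12.4% of all windows hold them, and 13 of the keratin windows do. The CCAAT box (CCAAT) is in the window of Krt71 and in 33.8% of all windows, and the GC box (GGGCGG) is in that of Krt75 and in 32.7% of all windows. The AP-1 letters TGANTCA are in 0 of the 3 windows and in 6.75% of all, and the E box letters CANNTG occur 3, 2 and 2 times in the windows of Krt79, Krt71 and Krt75 and in 66.2% of all windows. A match of letters is a description and not a binding site.

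Krt79 had the largest rise among the keratins tested. In experiments 1, 2 and 3 its level in DMSO was -5.61, -5.63 and -5.83, and in TSA it was -3.00, -2.90 and -3.40. The DMSO arrays lay within 0.21 of each other and all TSA arrays were above them. In intensity units the DMSO arrays read 12.9, 13.2 and 16.3 and the TSA arrays 84.1, 41.5 and 83.8, so the gene was well above background on all 6 arrays and dim in DMSO. Krt79 rose by 2.59 ± 0.22 (standard error), or 6.02-fold (95% interval 2.07 to 3.12 on the log2 scale, adjusted p = 0.0210), and ranked 84 by the size of its rise among the 28166 probes. In experiments 1, 2 and 3 it differed by 2.62, 2.73 and 2.42.

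Krt71 read -5.15, -5.65 and -5.91 on the DMSO arrays and -3.08, -3.04 and -3.65 on the TSA arrays. The groups did not overlap, and the lowest TSA array was well above the highest DMSO array. Krt71 rose by 2.31 ± 0.29, or 4.97-fold (adjusted p = 0.0320), with differences of 2.07, 2.61 and 2.26 in the 3 experiments. Its intensities were 17.8, 13.0 and 15.4 in DMSO and 79.5, 37.8 and 70.5 in TSA.

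Krt75 read -5.49, -5.04 and -5.57 on the DMSO arrays and -3.26, -2.94 and -3.78 on the TSA arrays, again without overlap. Krt75 rose by 2.04 ± 0.29, or 4.12-fold (adjusted p = 0.0391), with differences of 2.23, 2.10 and 1.79 in the 3 experiments. With the experiment (slide) as a block, the adjusted p was 0.0311 for each of Krt79, Krt71 and Krt75, and the same 3 keratins rose of 24, against 3.2% of all tested genes that rose and 0.145% that fell under the block.

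The 3 differences were above 0 under each alternative run, but their calls changed, and their sizes were smallest under the next 2 alternatives. With normexp background correction of the median spot signals, an offset of 50 intensity units and quantile normalization, changed together, the differences were 0.76 for Krt79, 0.59 for Krt71 and 0.56 for Krt75, and none passed (adjusted p = 0.0753, 0.116 and 0.154). In the authors' deposited table the differences were 1.67 for Krt79, 1.42 for Krt71 and 1.37 for Krt75, and Krt79 and Krt71 rose (limma on that table, adjusted p = 0.0396, 0.0483 and 0.0638). With quantile normalization alone Krt79 rose, and Krt71 and Krt75 differed by 2.18 and 1.91 without passing. With no filter on detection the differences were as in the fit above and Krt79 alone passed. With median centring, with trend and robust moderation, or with detection on at least 1 array, Krt79 and Krt71 rose and Krt75 did not pass. Leaving out any of DMSO replicates 1, 2 and 3 or TSA replicates 1 and 3 left 0 keratins past the threshold, as it left 0 probes over the whole array, with adjusted p for Krt79 between 0.0586 and 0.162. Without TSA replicate 2, Krt79, Krt71, Krt75 and Krt12 rose. The fitted difference of Krt79 stayed between 2.49 and 2.74 over the 6 fits that left out an array, that of Krt71 between 2.14 and 2.52, and that of Krt75 between 1.85 and 2.27. The probe sequences were not used here, so binding of related keratin transcripts to these probes was not tested.

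**Figure D1:**
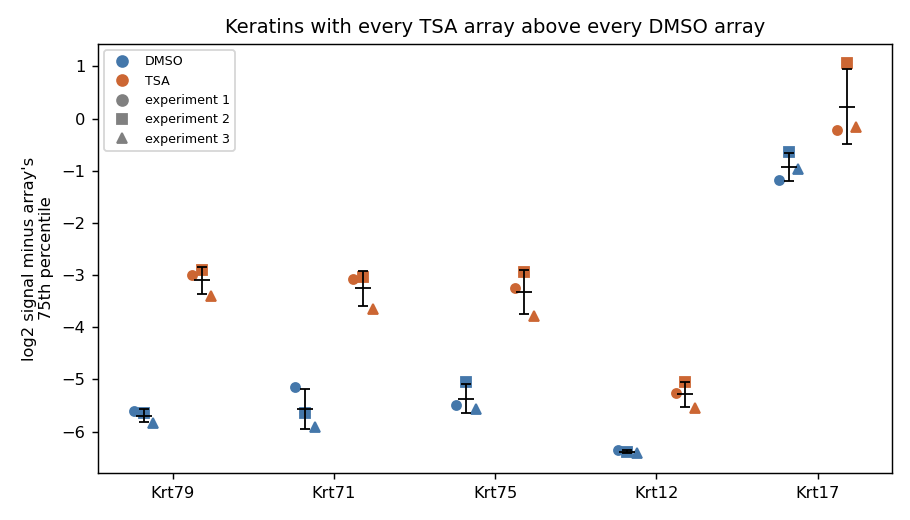
Levels (log2 processed signal minus the array's 75th percentile) of the 5 tested keratins whose TSA arrays all lay above their DMSO arrays; points are arrays, shapes are experiments, the bar is the mean with the standard deviation (n = 3). Krt79, Krt71 and Krt75 were separated by over 1 log2 unit, and Krt12 and Krt17, which did not pass the test, by less.

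Of the 24 tested keratins 5 had every TSA array above every DMSO array, against 16.4% of all tested genes, and 0 had every TSA array below, against 8.29%. Besides the 3 risen genes these were Krt12, the type I keratin of the cornea, and Krt17, a type I keratin of skin appendages and injured epidermis. Krt12 read -6.35, -6.39 and -6.41 in DMSO and -5.26, -5.05 and -5.54 in TSA. The DMSO arrays were nearly equal, but the probe was well above background on only 1 DMSO and 2 TSA arrays, so its low values are close to the limit of detection. Its difference was 1.10 ± 0.21 (adjusted p = 0.0785), and it passed without TSA replicate 2. Krt17 read -1.19, -0.65 and -0.96 in DMSO and -0.22, 1.06 and -0.17 in TSA, with the highest value on TSA array 2. Its difference was 1.16 ± 0.39 (adjusted p = 0.287, and 0.0901 with the block).

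**Figure D2:**
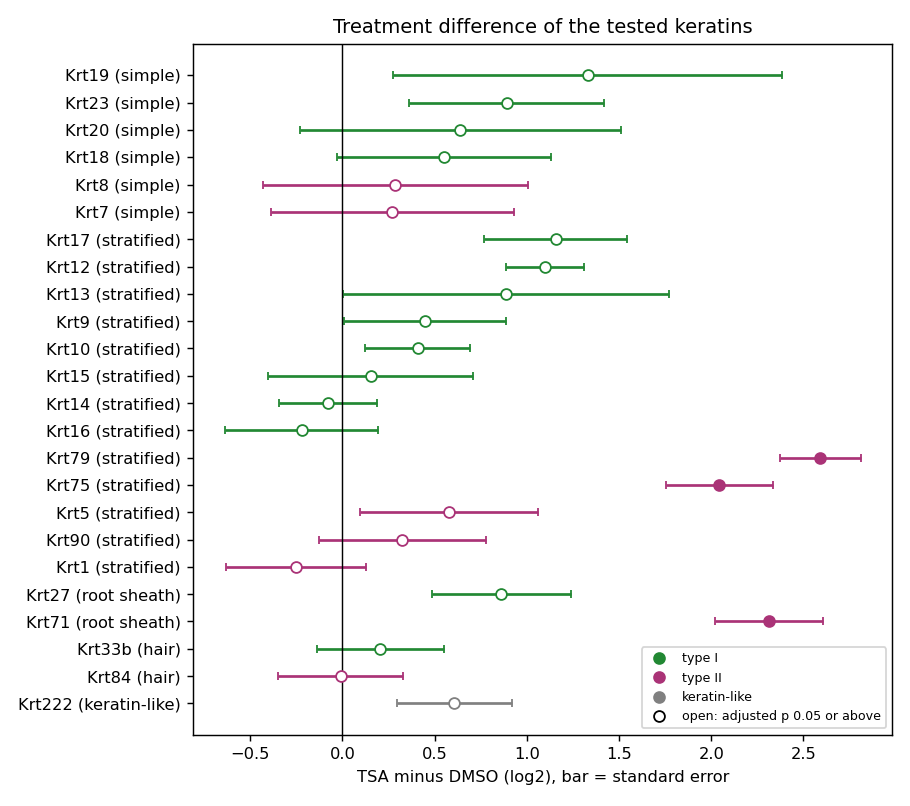
Difference between TSA and DMSO (log2) with its limma standard error for the 24 tested keratins, ordered by class and coloured by type; filled points passed an adjusted p of 0.05. The 3 filled points, Krt79, Krt75 and Krt71, lie above 2, and the other points lie between -0.25 and 1.33.

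The simple epithelial keratins differed more between experiments than between treatments. In the order of the experiments Krt8 read 4.28, 6.06 and 5.88 in DMSO and 4.38, 6.76 and 5.93 in TSA. Its partner Krt18 read 5.05, 6.36 and 6.34 in DMSO and 5.51, 7.45 and 6.44 in TSA. In both genes experiment 1 was the lowest in either treatment and the groups overlapped. The differences were 0.29 ± 0.72 for Krt8 (95% interval -1.43 to 2.0, adjusted p = 0.884) and 0.55 ± 0.58 for Krt18 (95% interval -0.83 to 1.93, adjusted p = 0.721). These intervals include the spread between experiments. With the experiment as a block the standard errors were 0.22 for Krt8 and 0.25 for Krt18, and neither passed (adjusted p = 0.475 and 0.303). The other probe of Krt8 gave 0.25 ± 0.73.

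Krt19, a small type I keratin of simple and ductal epithelia, varied most between experiments among the bright members. It read 0.52, 3.10 and 2.99 in DMSO and 1.65, 5.26 and 3.67 in TSA, with experiment 1 lowest in both. Only 0.915% of tested genes had a wider range over the DMSO arrays than the 2.58 of Krt19. Within experiments 1, 2 and 3 TSA was higher by 1.13, 2.17 and 0.69, giving 1.33 ± 1.06 (adjusted p = 0.663, and 0.118 with the block). Krt7, a type II keratin of ducts and glands, read 0.12, 1.77 and 1.90 in DMSO and 0.36, 2.15 and 2.09 in TSA. Its difference was 0.27 ± 0.66 (adjusted p = 0.880), and its other probe gave 0.28 ± 0.67. With the block the standard error of the first probe was 0.17 (limma adjusted p = 0.421).

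Krt20, of gut and urothelium, read -5.66, -4.21 and -2.81 in DMSO and -4.94, -3.37 and -2.44 in TSA (difference 0.64 ± 0.87, adjusted p = 0.779). Krt23, a type I keratin, read -6.74, -4.99 and -5.47 in DMSO and -5.52, -4.22 and -4.78 in TSA (difference 0.89 ± 0.53, adjusted p = 0.589). With the block the standard errors were 0.19 for Krt20 and 0.20 for Krt23 (limma adjusted p = 0.173 and 0.101). Each was detected on 2 DMSO and 3 TSA arrays, and both were again lowest in experiment 1. By the brighter probe of each gene, all 6 simple keratins had a higher value in TSA in each of the 3 experiments (the other probe of Krt8 was at -0.04 in experiment 3), and 0 of 6 passed, with or without the block. Over the 24 tested keratins, 16 were higher in TSA in all 3 experiments, against 32.6% of all tested genes. The range over the DMSO arrays exceeded the treatment difference in 17 of 24, and DMSO array 1 was the lowest DMSO array for 17. The shares of all tested genes with these properties were not computed, so the counts do not set the keratins apart. The median range over the DMSO arrays was 0.72 for the tested keratins and 0.40 for all tested genes.

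**Figure D3:**
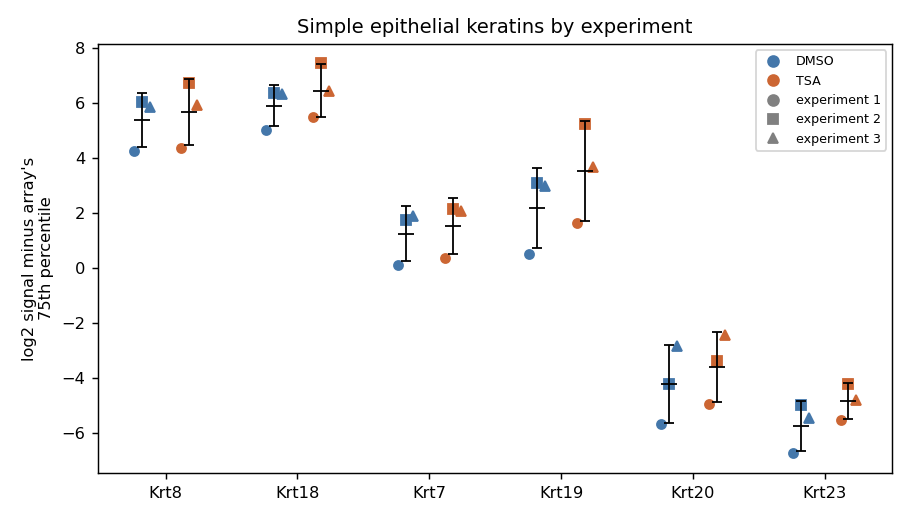
Levels (log2 processed signal minus the array's 75th percentile) of the 6 simple epithelial keratins; points are arrays, shapes are experiments, the bar is the mean with the standard deviation (n = 3). Experiment 1 is lowest in both treatments for every gene shown, and the DMSO and TSA groups overlap.

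Because these are bulk cultures, fewer cells of a type and less RNA per cell cannot be told apart. Markers of epithelia that the cultures could hold were set beside the simple keratins as the sum of their linear signals in units of the 75th percentile of the array. The 7 tested of 8 trophectoderm markers summed to 3.02, 6.95 and 3.18 on the DMSO arrays and 5.52, 14.2 and 5.61 on the TSA arrays. In experiment 2 most of this sum was Cdx2, at levels of 1.93 in DMSO and 3.31 in TSA. Of the 7, 6 had a higher mean in TSA, and Gata3 was lower (-0.54 ± 0.72, limma adjusted p = 0.775). The 9 tested of 10 extraembryonic endoderm markers summed to 3.67, 8.11 and 4.35 in DMSO and 4.86, 10.6 and 4.77 in TSA. The largest difference among them was that of Amn (1.84 ± 0.50, limma adjusted p = 0.179), and the median of the 9 was 0.21. Of the 9, 6 had a higher mean in TSA, and Gata6, Sox7 and Col4a1 were lower. Surface ectoderm markers, 5 tested of 8, summed to 1.29, 2.65 and 2.43 in DMSO and 1.79, 7.39 and 2.97 in TSA. Here the largest difference was that of Wnt6 (1.68 ± 1.02, limma adjusted p = 0.593). The median of the 5 was -0.15, and 2 of the 5 had a higher mean in TSA. Experiment 2 was the highest in each list and treatment. Of these lists 0 members rose or fell, against 1.36% and 0.0551% of all tested genes. At an unadjusted limma p under 0.05, 1 member was higher, in extraembryonic endoderm, and 0 were lower. The shares of all tested genes at that p were 12.1% and 2.78%. With the block 2 of the 7 genes of the trophectoderm list rose, Cdx2 and Hand1 (limma adjusted p = 0.0392 and 0.0425). Of the 9 of the extraembryonic endoderm list 1 rose, Amn (adjusted p = 0.0318), and of the 5 surface ectoderm genes 0 rose. Over all tested genes 3.2% rose with the block. The 5 mesoderm markers summed to 1.57, 9.86 and 3.04 in DMSO and 8.04, 42.0 and 9.06 in TSA. Of the 5, 4 rose with the block (Msgn1, Mixl1, Tbx6 and Mesp1), against the same 3.2%, and 0 rose without it. At an unadjusted limma p under 0.05, 3 of the 5 were higher, against 12.1% of all tested genes. Of defining markers, Trp63 was well above background on 0 DMSO arrays and 1 TSA array, Elf5 on 0 and 2, and Ttr on 0 arrays. The part of any of these cells in the keratin values, those of Krt79, Krt71 and Krt75 included, was not tested.

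Keratins of stratified epithelia other than Krt79 and Krt75 did not pass. Krt5 read -4.10, -3.03 and -3.77 in DMSO and -3.64, -2.10 and -3.42 in TSA, with a difference of 0.58 ± 0.48 (adjusted p = 0.672). With the block the standard error of Krt5 was 0.20 (limma adjusted p = 0.225). Its basal partner Krt14 read -2.35, -1.86 and -2.12 in DMSO and -2.56, -1.84 and -2.17 in TSA. The difference of Krt14 was -0.08 ± 0.26 (95% interval -0.71 to 0.55, adjusted p = 0.913). The groups overlapped, and the interval does not reach the size of the 3 rises.

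The suprabasal pair was dim. Krt1 read -3.79, -4.25 and -4.48 in DMSO and -4.73, -3.66 and -4.88 in TSA (difference -0.25 ± 0.38, adjusted p = 0.800), and Krt10 read -5.32, -4.74 and -5.21 in DMSO and -4.96, -4.23 and -4.85 in TSA (difference 0.41 ± 0.28, adjusted p = 0.630). The type II partners of Krt16 and Krt17, Krt6a and Krt6b, were not tested, since they were detected on 2 and 0 arrays. Krt16, induced in injured epidermis, read -0.77, -0.26 and -0.44 in DMSO and -1.52, 0.06 and -0.68 in TSA (difference -0.22 ± 0.41, adjusted p = 0.840). Krt13, of internal stratified epithelia, read -3.69, -1.85 and -2.19 in DMSO and -3.31, 0.02 and -1.78 in TSA (difference 0.89 ± 0.88, adjusted p = 0.709). With the block the standard error of Krt13 was 0.35 (limma adjusted p = 0.262). Its second probe was well above background on 0 arrays, as was the probe of its partner Krt4. The remaining tested members of this class, Krt9, Krt15 and Krt90, were each detected on 4 or 5 arrays and differed by 0.45, 0.15 and 0.32 (adjusted p = 0.704, 0.921 and 0.785).

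Few keratins of the inner root sheath and the hair shaft passed the detection filter apart from Krt71. Of the type I inner root sheath keratins, which pair with Krt71, Krt27 read -6.12, -5.45 and -6.27 in DMSO and -5.31, -4.40 and -5.54 in TSA (difference 0.86 ± 0.38, adjusted p = 0.448), while Krt25 and Krt26 were well above background on 0 arrays. With the block the standard error of Krt27 was 0.18 (limma adjusted p = 0.0891). Of the 12 hair shaft keratins on the array, 2 were tested. Krt33b differed by 0.20 ± 0.34 (adjusted p = 0.821) and Krt84 by -0.01 ± 0.34 (adjusted p = 0.993), each detected on all 6 arrays. The second probe of Krt33b was well above background on 0 arrays. The keratin-like gene Krt222 read -4.72, -5.12 and -4.91 in DMSO and -3.74, -4.80 and -4.38 in TSA (difference 0.61 ± 0.31, adjusted p = 0.526).

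Krt33a, a type I hair keratin, was not tested because it was detected on only 2 arrays. It read -7.87, -8.12 and -8.75 in DMSO, below detection, and -4.58, -7.02 and -5.01 in TSA, with detection on TSA arrays 1 and 3. In intensity units the DMSO arrays read 2.71, 2.35 and 2.16 and the TSA arrays 28.1, 2.40 and 27.4. With detection on at least 1 array as the filter, its difference was 2.71 ± 0.65 and did not pass (adjusted p = 0.155).

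Altogether 18 keratins were not tested, 8 of type I and 10 of type II, and 14 of them were well above background on 0 of 6 arrays. These 14 were Krt25, Krt26, Krt31, Krt32, Krt34 and Krt35 of type I and Krt2, Krt4, Krt6b, Krt76, Krt78, Krt82, Krt86 and Krt87 of type II. The remaining 4 were Krt33a, Krt6a, detected on 1 DMSO and 1 TSA array, and Krt36 and Krt88, each detected on 1 DMSO array. The 18 keratin probes without detection had a median of -6.66 on TSA array 2 against -7.59 and -8.10 on TSA arrays 1 and 3, although their median intensity there was 3.09 against 3.49 and 3.22. The 75th percentile that is subtracted was the lowest on that array, so levels near the background read higher there.

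The median difference over the 24 tested keratins was 0.56, against 0.08 over all tested genes, and 20 of the 24 had a higher mean in TSA, against 58.1% of all tested genes. For the type I members the median was 0.60 and for the type II members 0.32. In experiments 1, 2 and 3 the median of the keratins was 0.66, 0.80 and 0.35, against -0.03, 0.31 and 0.03 for all tested genes. Without TSA replicate 2 it was 0.095, and 15 of 24 were higher in TSA, against a median of -0.03 over all tested genes. Without DMSO replicate 1 it was 0.26, and without TSA replicate 1 it was 0.91. With no filter on detection the median was 0.54 over all 42 keratins, against 0.17 over all 18749 named genes. In experiments 1, 2 and 3 the 18 undetected keratin probes had median levels of -7.81, -7.70 and -8.47 in DMSO. In TSA their medians were -7.59, -6.66 and -8.10, so probes at background also read higher in TSA. The keratin medians are descriptions of genes chosen by name, with no test.

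The 3 risen genes are not neighbours of each other in the type II cluster. In the order of the RefSeq table, Krt75 lies between Krt90 (0.32 ± 0.45, adjusted p = 0.785) and the predicted gene Gm5414, which had no named probe. Krt71 lies next to Krt5, which did not pass, and on its other side is Krt72, which had no named probe. Krt79 lies between Krt4 and Krt78, both well above background on 0 arrays. Krt8 and Krt18, which end the cluster, follow Krt78. The 26 keratins of this order include 10 that were tested, of which 3 rose.

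**Figure D4:**
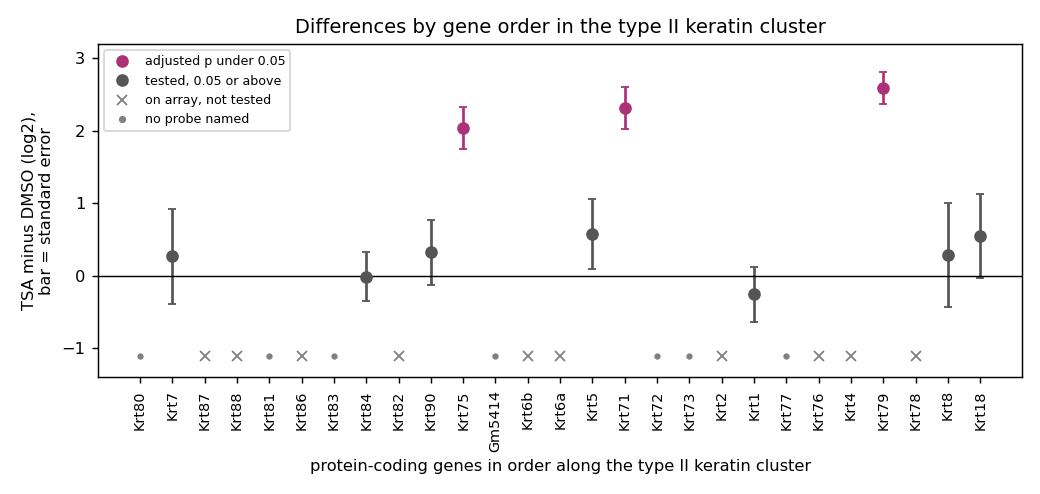
Difference between TSA and DMSO (log2, bar = limma standard error) of the protein-coding genes of the type II keratin cluster, in their order along the chromosome and not to scale. Krt75, Krt71 and Krt79 passed an adjusted p of 0.05 and are separated by genes that did not pass, were not tested or had no named probe (marked at the bottom, without a value).

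No gene of the other lists around the keratin system passed without the block. Of 14 tested transcription factors known to act on keratin genes, 0 rose or fell (3 higher and 0 lower at an unadjusted p under 0.05, against 12.1% and 2.78% of all tested genes), with a median of 0.49. Ovol1, a repressor of epidermal progenitor genes, read -5.26, -5.10 and -5.32 in DMSO and -3.73, -3.45 and -4.23 in TSA, with a difference of 1.42 ± 0.26 (adjusted p = 0.0688); it passed with the block (adjusted p = 0.0448). Grhl1, an epidermal regulator, gave 0.59 ± 0.24 (adjusted p = 0.403) and Msx2, a homeobox gene of the hair follicle, 1.23 ± 0.51 (adjusted p = 0.414). Hoxc13, a regulator of hair keratins, was well above background on 0 arrays.

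Of 15 tested desmosome and plakin genes, whose products anchor keratin filaments, 0 rose or fell (2 higher and 0 lower at an unadjusted p under 0.05, near those shares), with a median of 0.06. Pkp1, a desmosomal plakophilin of stratified epithelia, read -6.21, -5.60 and -6.48 in DMSO and -4.42, -3.89 and -4.75 in TSA. Its difference was 1.74 ± 0.33 (adjusted p = 0.0785), and it passed with the block (adjusted p = 0.0311). Pkp3 gave 1.04 ± 0.27 (adjusted p = 0.167) and Jup, plakoglobin, 0.82 ± 0.38 (adjusted p = 0.483).

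Of 6 tested hemidesmosome genes 0 changed (3 higher at an unadjusted p under 0.05, against 12.1% of all tested genes), and the smallest adjusted p was that of Itgb4 (0.69 ± 0.24, adjusted p = 0.307). Of 13 tested epithelial junction genes 0 changed (1 lower at an unadjusted p under 0.05, against 2.78% of all tested genes), with a median of 0.13, and Esrp1, an epithelial splicing factor, gave -0.53 ± 0.19 (adjusted p = 0.325). Of 13 tested genes for other intermediate filaments 0 changed (2 higher at an unadjusted p under 0.05, near the 12.1% of all tested genes), with a median of 0.46. Among these Bfsp1, a lens filament protein, gave 0.79 ± 0.31 (adjusted p = 0.375), Des, desmin, 1.00 ± 0.39 (adjusted p = 0.386) and Nefl, a neurofilament, -0.54 ± 0.25 (adjusted p = 0.485).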

How the data were processed

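Total RNA of 6 cell cultures (3 DMSO, 3 TSA) was measured on 6 single-colour Cy3 arrays. Per the file headers, the deposited intensity values are processed signals, background-subtracted within each array and not scaled between arrays; the submitters' processing notes name Agilent Feature Extraction 10.7. The authors' deposited series table holds log2 values whose normalization, centring and scale are not given in the sources used here; its columns have medians of 6.31 to 6.34, share a maximum of 19.1 and correlate at 0.982 to 0.992 with log2 of the processed signal, and it served as an alternative.

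After removal of control spots and of 57 to 84 outlier spots per array, each processed signal was log2-transformed and centred on the 75th percentile of its array, and repeated spots of a probe were averaged. Probes well above background on at least 3 of 6 arrays (28166 of 41174) entered a two-sided test in limma 3.58.1 (R 4.3.3; lmFit, then eBayes), with treatment as the only term and Benjamini-Hochberg adjustment over all tested probes at 0.05. Of all probes, 27479 had 1 gene through their RefSeq identifier, 0 had several and 13695 had none. A gene takes its tested probe with the highest mean. Errors are moderated standard errors of the fit without the block unless the block is named, so they include the spread between experiments. The p-values rest on the spread between samples labelled as independent experiments. The fit was also run on simulated data with independent noise on each array. That simulation leaves out the pairing of the samples, so it does not check the fit for paired samples. Deviations of the DMSO and TSA arrays of the same experiment correlated at 0.484, 0.614 and 0.585 (different experiments, -0.568 to 0.0916), so the replicate numbers, which are also the slides, pair the samples. Named are keratins past the threshold, those detected on all 6 arrays, the main simple, basal and suprabasal keratins, and in other lists up to 3 members with the smallest adjusted p and any past the threshold. Krt9, Krt12, Krt15, Krt20, Krt23, Krt27, Krt33a, Krt90 and the cell type markers, Pax6 included, were named after their values were seen. For the cell type lists the plan was to name the 3 members with the highest mean signal, and it was not followed. Alternatives were 2 other scalings, normexp with quantile normalization, the authors' table, 3 detection filters, the block, trend moderation, outlier spots kept, the mean over a gene's probes, and leaving out arrays or slide 2. Members and lists were chosen with earlier results of these data known. Python 3.11.15 with pandas 2.3.3 and matplotlib 3.10.9 did the rest.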

Additional observations from a re-analysis of the deposited data

How the results depend on the processing

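The count of risen keratins, 3, became 1 with quantile normalization and with no filter, and 0 with normexp background correction and quantile normalization together or with slide 2 left out (limma, smallest adjusted p among keratins 0.0753 and 0.0510). It was between 0 and 4 over the 6 fits that left out an array, and no keratin fell under any alternative run. Over the whole array, 259 probes rose and 10 fell. The count that rose was 148 with quantile normalization, 137 with median centring, 127 with normexp, 142 with the authors' table, 166 with detection on at least 1 array and 58 with no filter. It was 0 with slide 2 left out, where 4997 probes had an unadjusted p under 0.05. The count that fell was 5 with detection on at least 1 array, 0 with no filter and 0 with slide 2 left out. With the replicate block, 618 probes rose and 41 fell, and the block changed no keratin call. Leaving out an array gave 0 to 576 risen and 0 to 54 fallen probes; the fits with 0 had 2022 to 3330 probes at an unadjusted p under 0.05. The median difference over the tested keratins was 0.12 with normexp, 0.30 with the authors' table and 0.80 in experiment 2 alone, and 0.095 to 0.91 over the fits that left out an array. Krt33b, which did not pass, turned to -0.0075 with slide 2 left out. Over the fits that left out an array, members that did not pass changed sign: Krt7 (-0.30 to 0.85), Krt8 (-0.28 to 0.94), Krt14 (-0.25 to 0.11), Krt16 (-0.61 to 0.18), Krt33b (-0.15 to 0.41) and Krt84 (-0.31 to 0.28). The normexp fit changed the background correction and the scaling at once and used median spot signals, since the files give no mean spot signal. Where no cause is named, the cause was not tested. Signal over background limits the dim members: the DMSO values of the risen keratins lay between 12.9 and 19.8 intensity units, against medians of 2.63 to 3.19 for undetected keratin probes.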
